A study of Mus musculus with 4 samples.

Results

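The Bcl2 family decides at the outer mitochondrial membrane whether a cell lives or dies. Survival proteins such as BCL2, BCL-XL and MCL1 hold back the pore-forming effectors BAX and BAK, and the BH3-only proteins bind the survival proteins or the effectors and promote death. In the thymus BIM, encoded by Bcl2l11, is known for the deletion of self-reactive thymocytes, and BCL2 and MCL1 for the survival of the single-positive cells that remain. The genes described here were 10 listed members of this family, taken by symbol. Every probe set that the platform annotation paired with exactly 1 of these symbols was taken, which gave 30 probe sets for 9 of the 10 genes, out of 34945 probe sets for 18193 genes in the series. Bax had no probe set of this kind and was not analysed here.

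The arrays measured RNA of sorted CD4 single-positive thymocytes from B6 mice homozygous for a floxed Cul3 allele. CUL3 is the cullin scaffold of ubiquitin ligases that use BTB-domain adaptors. The 2 LM arrays came from mice without the CD4-Cre transgene (CD4Cre-Cul3fl/fl) and the 2 KO arrays from mice with it (CD4 Cre+Cul3fl/fl), in which Cre is driven by regulatory sequences of the Cd4 gene, which thymocytes already use before they become single-positive. The cells of both groups were sorted as negative for CD25, the CD1d-PBS57 tetramer and the gamma delta T cell receptor. The labels give neither age nor sex, nor whether animals were pooled or each array had an animal of its own. P-values here therefore cover the spread between arrays, which may be only technical. No array came from Cre-positive mice with intact Cul3, and an effect of the transgene cannot be told apart from one of the deletion.

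The targeted gene did not mark the genotype on these arrays. The 5 Cul3 probe sets differed by -0.15 to 0.31 (KO minus LM, log2) and none passed the threshold, so "KO" below means the arrays labelled KO. Where these probe sets lie relative to the floxed exons was not used here, and one that lies elsewhere in the gene is no check of the deletion. All 9 measured markers of CD4 single-positive cells were above background, with summed signals of 60186 and 60459 in LM and 60620 and 55429 in KO. B cell, myeloid, neutrophil, erythroid and epithelial markers were mostly near or below background, with a summed signal of 672 or less for each of these lists on every array. The highest were the myeloid marker Cd68, at 174 to 253, and the erythroid marker Alas2, at 95.5 to 282, against background levels of 77.7 to 106. These levels were set after normalization and turned back into signal units, so they compare only roughly with deposited signals. Summed signals of the 7 double-positive thymocyte markers were 5298 and 6382 in LM and 6286 and 6442 in KO. Of the 6 tested, 5 were higher and 1 lower in KO, with a median difference of 0.16 (log2), and 0 passed. Summed signals of the 4 regulatory T cell markers were 3827 and 3577 in LM and 5496 and 4795 in KO. None of the 4 passed (lowest limma adjusted p = 0.221). Il2ra and Ikzf2 lay at an unadjusted p below 0.05, while Foxp3 and Ctla4 overlapped between the groups. For 3 NKT or innate-like T cell markers the sums were 1067 and 958 in LM and 1277 and 1177 in KO. Of the 2 tested, Il2rb was higher in KO (0.40, limma unadjusted p = 0.0461) and Zbtb16 lower (-0.49), and 0 passed. Summed signals of 19 cell cycle genes were 33452 and 35415 in LM and 20344 and 21057 in KO. All 18 tested were lower in KO and 7 of them passed the threshold, against 0.142% of all genes tested called lower. The list was chosen because its genes were known to move from earlier results of these data. Its count is therefore no test against that share. All 7 calls were lost without the filter on dim genes or without the intensity trend, and 4 of them, Top2a, Cenpe, Ccna2 and Cenpf, over the mean of each gene's probe sets, where Top2a went from -1.44 to -0.22 and Cenpf from -1.21 to -0.76. The Ccna2 call was also lost without LM replicate 1 or KO replicate 2, and the Cenpf call without LM replicate 2. Whether double-positive cells, regulatory or innate-like T cells or dividing cells had a part in any difference of a Bcl2 family gene was not tested. In sorted bulk cells fewer cells of a type and less RNA per cell cannot be told apart.

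Of the family, 1 probe set of Bcl2 was higher on the KO arrays, about 4.46-fold, and 27 other tested probe sets did not pass the threshold, an adjusted p of 0.05. Differences are KO minus LM on a quantile normalized log2(signal + 16) scale, with the standard error and the adjusted p of limma, a linear model fitted here over all 21795 probe sets above background. The called probe set was 1 of 28 family probe sets tested, against 0.229% of all probe sets tested and 0.119% called higher. At an unadjusted p below 0.05 there were 4 of the 28, against 7.97% of all probe sets tested. In a second fit that takes 1 probe set per gene, its brightest on average, 0 of 8 tested family genes passed in limma and 0 lay at an unadjusted p below 0.05. Of all 11255 genes tested, 0.275% passed and 8.4% lay at an unadjusted p below 0.05. The median difference was 0.07 over the 8 family genes, 5 of them positive, and 0.0018 over all genes tested. On the normalized scale, LM and KO arrays did not overlap for 2 of the 8, Bcl2l1 and Bcl2l11, and for 37.4% of all genes tested.

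**Figure D1:**
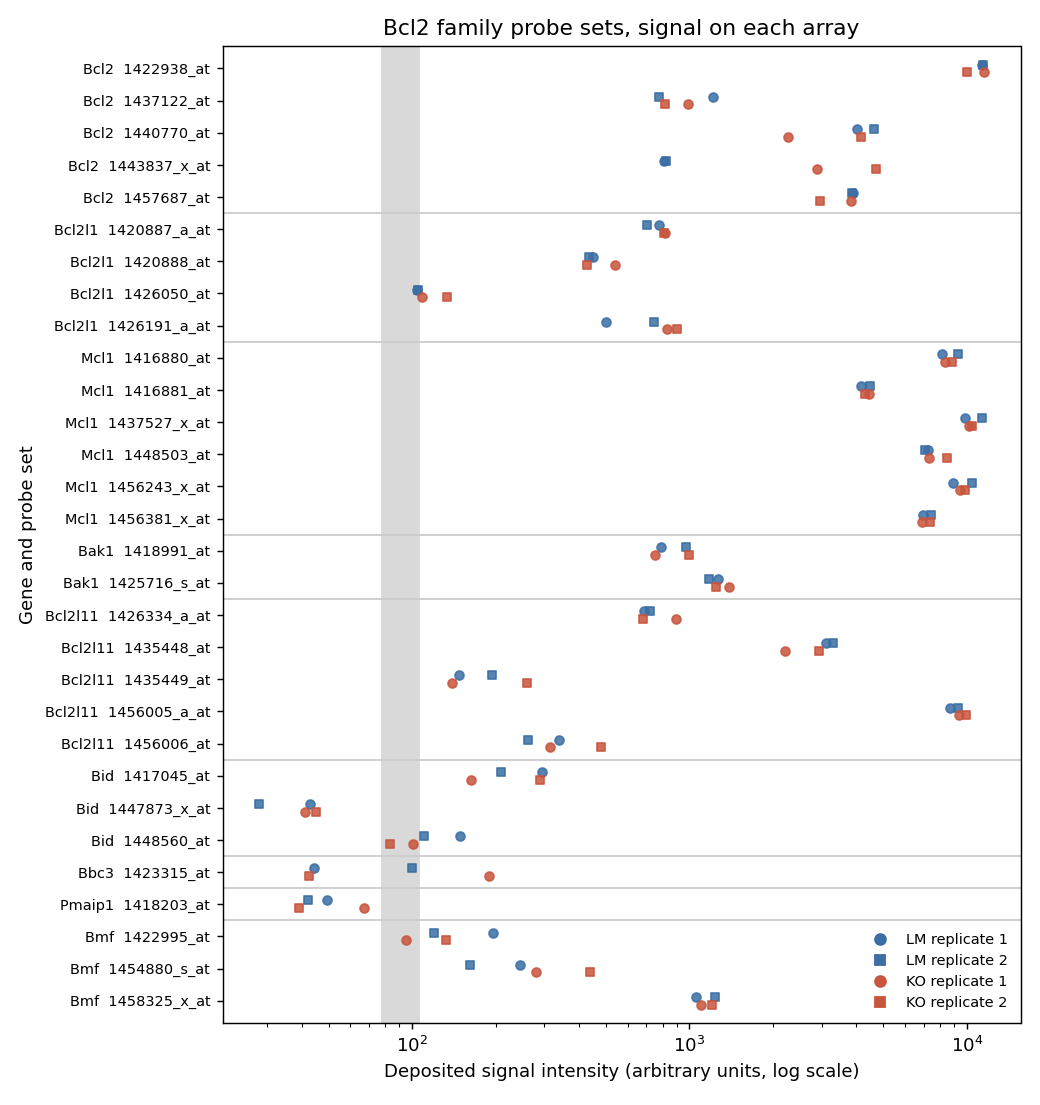
Deposited signal intensity of the 30 Bcl2 family probe sets on each array (arbitrary units, log axis), with LM arrays in blue, KO arrays in red, replicate 1 as circles and replicate 2 as squares. The grey band spans the background levels of the 4 arrays, 77.7 to 106, which were set after normalization and compare only roughly with deposited signals. The LM and KO points lie apart for Bcl2 probe set 1443837_x_at, at 807 and 822 against 2876 and 4688.

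Bcl2, the founding survival gene of the family, was read by 5 probe sets that did not move together. Probe set 1443837_x_at had signals of 807 and 822 in LM and 2876 and 4688 in KO. Both KO arrays were above both LM arrays, with KO replicate 2 the higher of the pair. On the log2 scale the means were 9.69 ± 0.04 and 11.85 ± 0.50 (SD, n = 2 each), a difference of 2.16 ± 0.20 (SE, limma adjusted p = 0.000468, 95% interval 1.72 to 2.60). By its p-value this probe set stood at rank 4 of the 21795 tested. Its difference was 1.81 without KO replicate 2 and 2.51 without KO replicate 1. With 1 KO array left, the spread between arrays came from the LM pair alone, so those fits do not check the call. With all 4 arrays, the probe set was not called when dim probe sets were kept in the fit (limma adjusted p = 0.0916). Nor was it called when eBayes was run without its intensity trend (adjusted p = 0.316). With those settings the estimate itself did not move. Across the alternatives that kept all 4 arrays the limma adjusted p ran from 2.96e-07, with median centring, to 0.316.

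The other 4 Bcl2 probe sets had differences below 0, and none passed. The brightest, 1422938_at, the one that the annotation pairs with a RefSeq transcript, gave 11332.5 and 11435 in LM and 11556 and 10038 in KO. These groups overlapped, and the difference of -0.09 ± 0.08 had a 95% interval of -0.25 to 0.07 (limma adjusted p = 0.855). In this fit that is a KO signal between 84.0% and 105% of that on the LM arrays. The SE was 0.17 without the intensity trend and 0.18 with median centring. Probe set 1457687_at gave 3893 and 3858 in LM and 3829 and 2958 in KO. Its difference was -0.19 ± 0.13 (limma adjusted p = 0.803), with KO replicate 2 the lowest and KO replicate 1 close to the LM pair.

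Probe set 1437122_at gave 1219 and 778 in LM and 991 and 816 in KO, so that both KO values lay between the LM values (-0.12 ± 0.23, limma adjusted p = 0.957). Probe set 1440770_at gave 4005 and 4638 in LM and 2271 and 4161 in KO. Here KO replicate 1 alone was low, and the difference of -0.47 ± 0.21 (limma adjusted p = 0.600) became -0.93 without KO replicate 2, where it passed (adjusted p = 0.00203), and -0.03 without KO replicate 1. The count of family probe sets called was therefore 2 without KO replicate 2.

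**Figure D2:**
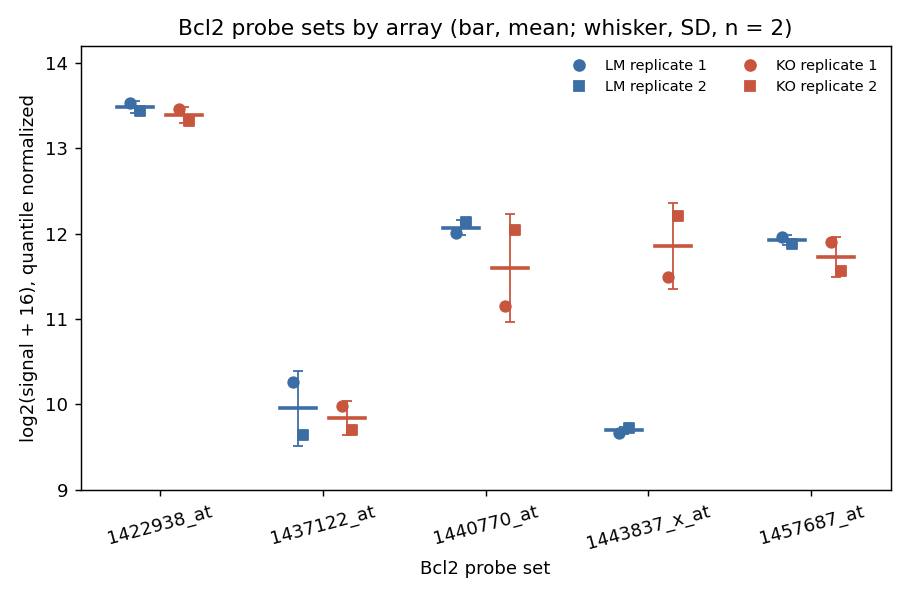
The 5 Bcl2 probe sets on each array, as quantile normalized log2(signal + 16), with LM in blue and KO in red; bars are means and whiskers SDs of 2 arrays. Probe set 1443837_x_at goes from a mean of 9.69 to 11.85, while the means of the other 4 are lower on the KO arrays by 0.09 to 0.47.

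The unequal change within Bcl2 was also taken array by array. The log2 signal of 1443837_x_at minus the mean of the other 4 Bcl2 probe sets was -2.28 and -2.05 in LM and -0.13 and 0.55 in KO. The groups did not overlap, and the difference of 2.37 had an exact two-sided permutation p of 0.333, the smallest that 2 arrays against 2 can give. Because 1443837_x_at was picked for its call on these same arrays, this separation is no further support for the call. Among the 534 genes with at least 5 tested probe sets, the range of probe set differences within a gene had a median of 0.50. Bcl2 had a range of 2.63, rank 1 of 534, whereas Bcl2l11 had 0.68 (rank 151) and Mcl1 0.18 (rank 516). The upper end of the Bcl2 range is 1443837_x_at itself, so this rank is no further support either. A gene with a single called probe set was common here, since 22 of the 29 genes with a called probe set and at least 2 tested had no second one called.

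The suffix _x_at is the array maker's mark for probe sets in which some probes also match other sequences. Of 1309 tested probe sets with this suffix 0.382% were called, and of the 5 in the family, which include 3 of Mcl1 and 1 of Bmf, only 1443837_x_at was. The probe sequences and the positions of the probe sets within Bcl2 were not used here, and whether another transcript contributes to this signal was not tested. Because the gene-level fit reads Bcl2 from 1422938_at, it gave -0.09 ± 0.08 (adjusted p = 0.843). The mean of all 5 probe sets turned that difference to 0.26 (adjusted p = 0.502).

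Mcl1, the short-lived survival protein that thymocytes require throughout their development, had 6 probe sets with differences between -0.03 and 0.15, none of which passed. Its brightest probe set, 1437527_x_at, gave 9880 and 11348 in LM and 10207 and 10481 in KO. Both KO signals lay between the LM signals, and the difference was -0.03 ± 0.07 (limma adjusted p = 0.966). In the main fit the 95% interval of that probe set, -0.19 to 0.13, left out a KO signal below 87.5% or above 109% of the LM signal. Its SE rose to 0.17 without the intensity trend and to 0.18 with median centring, so this bound depended on the settings. Of the 6 differences 3 were positive and 3 negative, and on the normalized log2 scale the groups overlapped for every one. In the deposited signals both KO arrays of 1448503_at, at 7335 and 8459, lay above both LM arrays, at 7253 and 7091. The brightest probe set ran from -0.084 to 0.019 when single arrays were left out.

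Bcl2l1 encodes BCL-XL, the survival protein on which double-positive thymocytes depend. Its 4 probe sets were all above 0 in difference, from 0.11 to 0.50, and none passed. Probe set 1426191_a_at gave 502 and 748 in LM and 829 and 899 in KO. Both KO arrays were higher, and LM replicate 1 was the lowest of the 4. The difference was 0.50 ± 0.23 (limma adjusted p = 0.623, unadjusted p = 0.0479), or 0.20 without LM replicate 1 and 0.79 without LM replicate 2. The brightest probe set, 1420887_a_at, gave 775 and 704 in LM and 818 and 810 in KO, a difference of 0.15 ± 0.19 (adjusted p = 0.919) with groups that also did not overlap. Such a separation on the normalized scale was found for 8 of the 28 family probe sets and for 36.7% of all probe sets tested. Probe set 1420888_at turned to -0.06 without KO replicate 1, and 1426050_at, at signals of 105 to 134, was close to background.

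Among the effectors, Bak1, which encodes the pore-forming BAK, passed the threshold in neither of its 2 probe sets. Probe set 1425716_s_at gave 1264 and 1174 in LM and 1388 and 1248 in KO, a difference of 0.12 ± 0.17 (limma adjusted p = 0.924, 95% interval -0.24 to 0.49). Probe set 1418991_at gave 792 and 973 in LM and 751 and 995 in KO. The KO values enclosed the LM values, and the difference was -0.003 ± 0.21 (limma adjusted p = 0.999).

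Bcl2l11, the BH3-only gene of BIM, was read by 5 probe sets. Its brightest, 1456005_a_at, gave 8666 and 9282 in LM and 9371 and 9971 in KO. Both KO arrays were higher than both LM arrays by a small margin, and the difference of 0.11 ± 0.08 did not pass (limma adjusted p = 0.815, 95% interval -0.06 to 0.28). Probe set 1435448_at went the other way and gave 3109 and 3305 in LM and 2220 and 2931 in KO. KO replicate 1 was the lowest, and the difference was -0.32 ± 0.15 (limma adjusted p = 0.624), with values from -0.54 to -0.10 when 1 array was left out. The remaining 3 probe sets differed by 0.13 to 0.36, their groups overlapped and their adjusted p-values were 0.822 or above.

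Bmf, a BH3-only protein of the cytoskeleton that is released under stress, had 3 probe sets with no common direction. Probe set 1454880_s_at gave 244 and 162 in LM and 280 and 440 in KO. Both KO arrays were higher, with KO replicate 2 well above the rest, and the difference of 0.76 ± 0.30 did not pass (limma adjusted p = 0.524, unadjusted p = 0.0250). Probe set 1422995_at gave 196 and 120 in LM and 94.9 and 133 in KO, a difference of -0.46 ± 0.38 (adjusted p = 0.852). The brightest, 1458325_x_at, gave 1054 and 1238 in LM and 1104 and 1202 in KO, both KO values lying between the LM values, with a difference of 0.03 ± 0.18 (adjusted p = 0.995). Its sign turned with median centring (-0.04) and without LM replicate 1 (-0.09) or KO replicate 2 (-0.04).

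Bid, which links death receptors to the mitochondrion once caspase 8 has cut it, had 2 tested probe sets. Probe set 1417045_at gave 294 and 210 in LM and 163 and 290 in KO. The groups overlapped, and the difference was -0.20 ± 0.32 (limma adjusted p = 0.939), or 0.17 without KO replicate 1. Probe set 1448560_at gave 148 and 110 in LM and 101 and 83.3 in KO, near background, a difference of -0.48 ± 0.41 (limma adjusted p = 0.856). The remaining probe set, 1447873_x_at, was below background on all 4 arrays.

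The BH3-only genes best known as p53 targets were at or below background in these cells. Bbc3, which encodes PUMA, had 1 probe set that gave 44.3 and 100 in LM and 189 and 42.4 in KO. LM replicate 2 and KO replicate 1 exceeded background and the other 2 arrays did not. The difference of 0.31 ± 0.64 (limma adjusted p = 0.958) had a 95% interval from -1.06 to 1.69. Its sign turned without LM replicate 1 (-0.21) and without KO replicate 1 (-0.65), where the probe set no longer passed the background filter. Pmaip1, which encodes NOXA, gave 49.4 and 42.1 in LM and 67.2 and 39.2 in KO, below background on every array, so that it was not tested and no difference can be read from it.

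**Figure D3:**
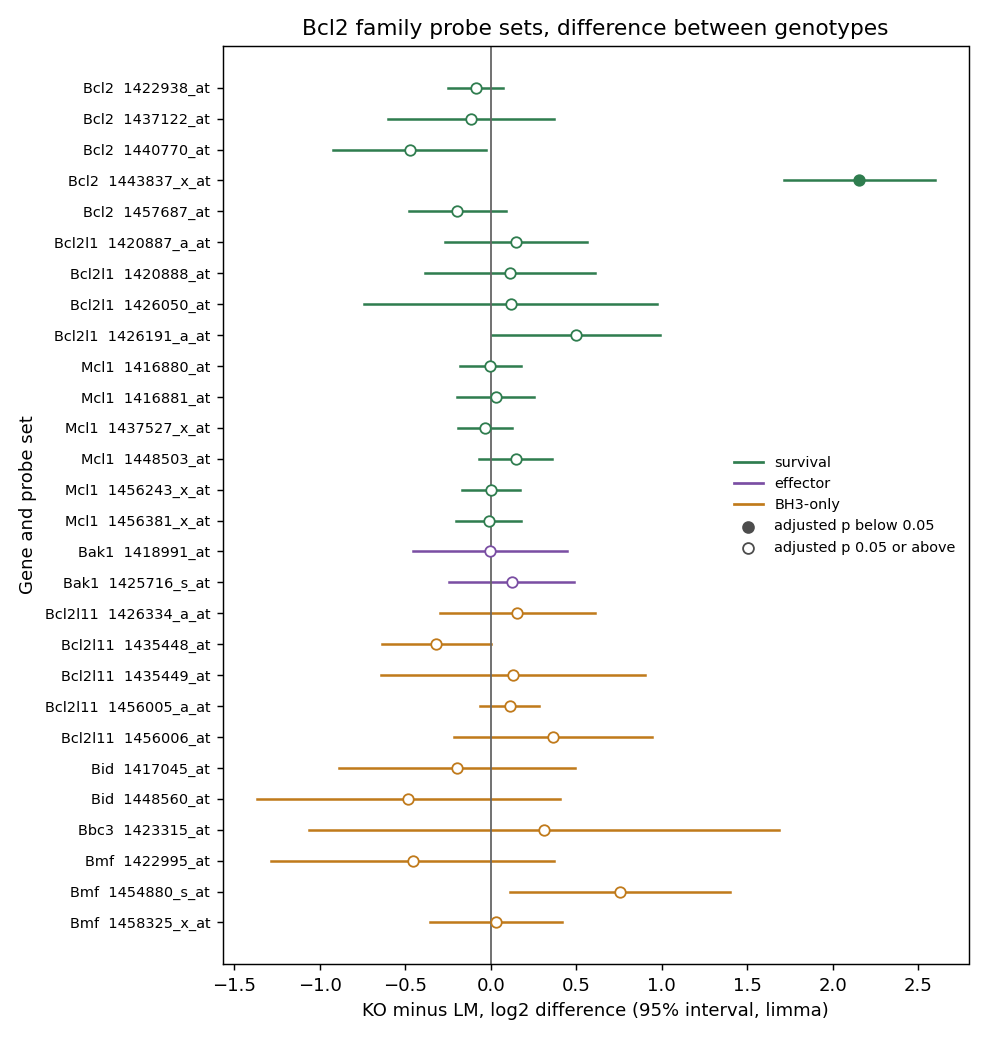
KO minus LM log2 difference of the 28 tested Bcl2 family probe sets, with 95% intervals from limma; green marks survival genes, purple the effector Bak1 and orange BH3-only genes, and filled points passed an adjusted p of 0.05. Only Bcl2 probe set 1443837_x_at, at 2.16, is filled, and the other 27 lie between -0.48 and 0.76.

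The precision of these differences varied across the family. For the genes with bright probe sets the gene-level intervals of the main fit were narrow. These intervals ran from 83.8% to 106% of the LM signal for Bcl2 (by 1422938_at), 87.3% to 109% for Mcl1 and 95.7% to 122% for Bcl2l11. They ran from 83.5% to 147% for Bcl2l1, from 84.8% to 140% for Bak1 and from 78.3% to 133% for Bmf. The intervals that reached furthest below the LM signal were those of Bid, at 53.9% to 141%, and of Bbc3, at 46.8% to 329%. The narrow intervals of Bcl2, Mcl1 and Bcl2l11 depended on the settings. Their SEs of 0.076, 0.074 and 0.080 became 0.16, 0.15 and 0.16 without the intensity trend. With median centring the SEs were 0.19, 0.19 and 0.18.

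Other genes of the family and of the pathway around it were read from lists at the gene level, and 0 of 68 tested genes in the 5 lists passed in limma, while 2 lay at an unadjusted p below 0.05. In the family beyond the listed members, 8 of 12 genes with a probe set were tested, with a median difference of -0.09, 2 positive and 6 negative. The 1 at an unadjusted p below 0.05, Bcl2l2, which encodes the survival protein BCL-W, gave 242 and 301 in LM and 420 and 436 in KO. The groups did not overlap (0.63 ± 0.25, limma adjusted p = 0.490), and this probe set kept a difference of 0.43 to 0.82 with any 1 array left out, but over the mean of its probe sets the difference was -0.34 (adjusted p = 0.866). Another Bcl2l2 probe set became the brightest when a KO array was left out, and read 0.11 without KO replicate 1 and -0.10 without KO replicate 2. Bad, a BH3-only gene whose protein is held inactive by phosphorylation, gave 537 and 546 in LM and 520 and 1233 in KO. KO replicate 2 alone was high. The difference of 0.57 ± 0.32 (limma adjusted p = 0.707) passed at 1.17 without KO replicate 1 (adjusted p = 0.0378) and was -0.05 without KO replicate 2. The effector relative Bok differed by -0.61 ± 0.40 and the mitophagy receptor Bnip3 by -0.85 ± 0.59 (limma adjusted p = 0.775 and 0.793). Both were near background. Bok gave 151 and 171 in LM and 138.5 and 77.7 in KO, and Bnip3 gave 157 and 113 in LM and 151 and 28.5 in KO. Without KO replicate 2 the Bok difference was -0.20 and that of Bnip3 turned to 0.15, and without KO replicate 1 Bok differed by -1.03.

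Downstream of the mitochondrion, 18 of 18 genes with a probe set were tested, with a median of -0.01, 8 positive and 10 negative, and 1 at an unadjusted p below 0.05. That gene was Apaf1, the scaffold of the apoptosome, which gave 815 and 692 in LM and 1028 and 969 in KO. Both KO arrays were higher, and the difference of 0.41 ± 0.19 did not pass (limma adjusted p = 0.584). Over the mean of its probe sets it was 0.19 ± 0.15 (adjusted p = 0.803). The outer membrane channel Vdac2, which binds BAK, differed by -0.18 ± 0.12 (adjusted p = 0.779), the nuclease Endog by 0.35 ± 0.34 (adjusted p = 0.870), or -0.20 without KO replicate 1, and the protease Htra2 by -0.21 ± 0.21 (adjusted p = 0.871).

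In the death receptor arm 9 of 9 genes were tested, with a median of -0.07, 3 positive and 6 negative, and 0 at an unadjusted p below 0.05. The ligand Fasl differed by -0.78 ± 0.45 near background (limma adjusted p = 0.723) and the receptor Tnfrsf1a by -0.34 ± 0.21 (adjusted p = 0.739). Tnfrsf10b, the mouse TRAIL receptor, differed by 0.33 ± 0.36 (adjusted p = 0.882), and the adaptor Fadd by -0.16 ± 0.22 (adjusted p = 0.913), or 0.15 without KO replicate 2.

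Cytokine signals that sustain BCL2 and MCL1 levels in thymocytes were given by 13 tested genes of 14 with a probe set. Their median was -0.02, 6 were positive and 7 negative, and 0 lay at an unadjusted p below 0.05. The kinase Pim1 differed by -0.32 ± 0.17 (limma adjusted p = 0.685), or 0.26 over the mean of its probe sets, the kinase Akt1 by -0.28 ± 0.20 (adjusted p = 0.800), the signal transducer Stat5b by -0.22 ± 0.16 (adjusted p = 0.813) and the transcriptional repressor Gfi1 by 0.17 ± 0.17 (adjusted p = 0.872). Il7r, the receptor chain for interleukin-7, gave 8862 and 9600 in LM and 9765 and 9322 in KO. These signals overlapped, while after normalization both KO arrays lay above both LM arrays by a small margin (0.04 ± 0.07, limma adjusted p = 0.942), and with median centring the difference was -0.001.

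Of 20 tested regulators of the members' transcription or turnover, 8 differences were positive and 12 negative, with a median of -0.03 and 0 at an unadjusted p below 0.05. Dynll1, a dynein light chain that binds BIM, differed by 0.23 ± 0.12 (limma adjusted p = 0.691), and Foxo1, of the forkhead factors that can induce BIM, by -0.33 ± 0.18 (adjusted p = 0.703). The p53 ubiquitin ligase Mdm2 differed by -0.22 ± 0.14 (adjusted p = 0.771) and Usp9x, a deubiquitinase that stabilises MCL1, by -0.19 ± 0.13 (adjusted p = 0.803), or 0.02 over the mean of its probe sets.

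**Figure D4:**
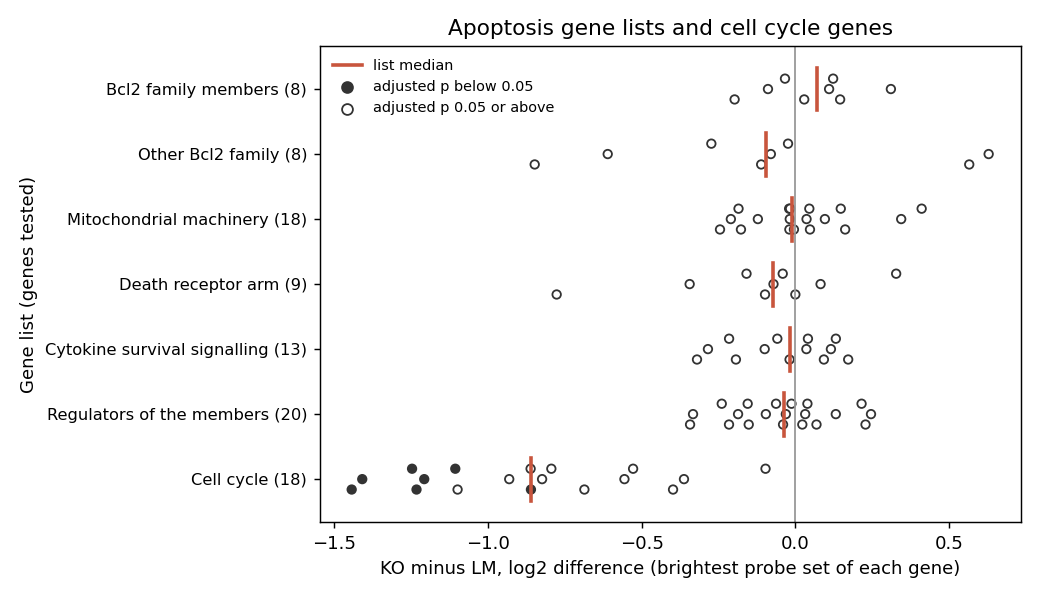
KO minus LM log2 difference of each tested gene in the Bcl2 family, 5 related lists and a cell cycle list, with list medians as red bars and genes past an adjusted p of 0.05 filled. Medians of the family and the 5 related lists lie between -0.09 and 0.07 with no gene filled, and the 18 cell cycle genes, shown because they moved on the same arrays, have a median of -0.86 with 7 filled.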

How the data were processed

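Per the labels' protocols, RNA was extracted with Trizol, amplified with WT-Ovation Pico and labelled with biotin. The deposited table holds linear signal intensities, 1 for each probe set on each array, which the authors had scaled: each array's mean, trimmed by 2% at each end, was 500.0. How probes were summarised and background removed is not given in the sources used here. Control probe sets (64) were left out. Symbols came from the platform annotation, and 34884 of 34945 single-symbol probe sets matched the RefSeq gene table.

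Signals were taken as log2(value + 16), which understates changes of dim genes, and quantile normalized. Each array's background was set from 80 probe sets of odorant and pheromone receptors, at the percentile 95 of their values, and features above it on at least 2 arrays were tested. The genotype difference (KO minus LM) was estimated in R 4.3.3 by limma 3.58.1 (lmFit and eBayes with intensity trend, genotype as only term), once with the brightest probe set per gene and once with every probe set. P-values are two-sided and Benjamini-Hochberg adjusted over all features tested, with a threshold of 0.05. The number of arrays limits the precision. Tables and plots used Python 3.11.15, pandas 2.3.3 and matplotlib 3.10.9.

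Members and lists were chosen with earlier results of these data known. Named genes are all members, Cul3, and from each list up to 4 genes with the smallest p plus any past the threshold. Il7r was added after its values were seen. Some cell type markers were named as well. No set test was run. Alternatives covered the filter, normalization, pseudocount, eBayes, probe set summary, replicate block and each array left out.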

Additional observations from a re-analysis of the deposited data

How the results depend on the processing

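The limits are 2 arrays per group, 2 residual degrees of freedom per gene and signals near background for Bbc3, Pmaip1, Bid and parts of Bmf. No family gene passed at the gene level under any of the 14 alternatives. The family probe set count of 1 was 0 without the filter on dim probe sets and 0 without the eBayes trend, and ran from 1 to 2 when 1 array was left out. In the other 6 alternatives run on single probe sets it was 1. The 31 genes called in all became 0 without the filter, 0 without the trend and 81 with median centring (38 higher, 43 lower), and 35 to 85 with 1 array left out. There the brightest probe set was chosen again. With each gene kept on its probe set, an alternative chosen after seeing the data, the counts were 64 without LM replicate 1, 64 without LM replicate 2, 47 without KO replicate 1 and 33 without KO replicate 2, and no family gene passed. A group left with 1 array is assumed there to have the other group's spread.

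Same-numbered arrays did not deviate together (correlation of deviations -0.02), but with 2 arrays per group this cannot exclude a pairing. The labels do not say whether arrays of the same number were paired. With the replicate block, 0 family genes, 1 family probe set and 43 genes in all passed, and 1443837_x_at differed by 2.16.

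With 1 array left out, 27 of the 27 uncalled family probe sets moved by over 1.5 times, and 12 of them changed sign. Of the 22 other uncalled genes named here, not counting those named only as cell type markers, 16 moved that far and 5 changed sign. With no normalization Mcl1 1456243_x_at differed by -0.0032. With median centring Bmf and its probe set 1458325_x_at differed by -0.037, Mcl1 1416881_at by -0.035 and 1456243_x_at by -0.053, and Il7r by -0.0010. With probe set means Bcl2 differed by 0.26, Mcl1 by 0.021, Bcl2l2 by -0.34, Pim1 by 0.26, Usp9x by 0.021 and Cul3 by 0.041. The cause was not tested. With 1 array left out, values ran from -0.084 to 0.019 for Mcl1 (1437527_x_at), -0.076 to 0.069 for 1416880_at, -0.059 to 0.061 for 1456243_x_at and -0.077 to 0.054 for 1456381_x_at. They ran from -0.57 to 0.17 for Bid (1417045_at), -0.089 to 0.15 for Bmf (1458325_x_at), -0.42 to 0.20 for Bcl2 1437122_at and -0.060 to 0.29 for Bcl2l1 1420888_at. For Bbc3 (1423315_at) they ran from -0.65 to 1.28, or from -0.21 to 1.28 over the fits in which it passed the background filter. For Bak1 1418991_at they ran from -0.20 to 0.19, for Bcl2l11 1426334_a_at from -0.038 to 0.35 and 1435449_at from -0.26 to 0.52, and for Bad from -0.045 to 1.17. For Bcl2l2 they ran from -0.10 to 0.82 over 2 probe sets, and from 0.43 to 0.82 on the one described. For Bnip3 they ran from -1.86 to 0.15, for Endog from -0.20 to 0.90, for Fadd from -0.46 to 0.15 and for Cul3 from -0.053 to 0.032.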
